A study of Mus musculus with 4 samples.

Results

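Urethane-induced lung tumors of Nrf2-deficient mice were compared with lung tissue outside the tumors of mice of the same genotype. The comparison was set by the labels, and it took 2 of the 4 arrays of the study: 1 array of Nrf2-/- tumor RNA and 1 array of Nrf2-/- non-tumor lung RNA. All groups came from female ICR mice aged 6 months that had been injected intraperitoneally with urethane at 1 g/kg, and tissue was taken 16 weeks later. The other 2 arrays held the same tissues of Nrf2+/+ mice. Both pools compared here therefore lacked Nrf2 and had both been exposed to urethane, and no lung without urethane was included. Tumors at the lung surface, between 1.0 and 1.5 mm across, were dissected under a microscope. RNA of 8 mice was pooled per group, so each group is a single measurement with no spread between animals. Whether the same animals gave both tissues is not given in the sources used here, and neither is the construction of the knockout allele.

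Nrf2, encoded by Nfe2l2, is a transcription factor that is held back by Keap1 and, on oxidative or electrophilic stress, switches on genes for glutathione synthesis, NADPH supply and detoxification through antioxidant response elements. Urethane is activated in the lung to a DNA-reactive epoxide and gives alveolar adenomas in mice. A surface tumor is made largely of one epithelial lineage, whereas a piece of surrounding lung holds airways, vessels, pleura and the cardiac muscle sleeves of pulmonary veins. In such bulk samples, fewer cells of a type and less RNA per cell cannot be told apart.

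The 2 arrays lay on the same slide and had no saturated spot. Between 54.2% and 63.5% of spots over all 4 arrays were well above background, the software's mark for a measurable signal. The 75th percentile of the signal was 742 units on the Nrf2-/- non-tumor array and 584 on the tumor array. Levels were log2 signals minus that percentile, which adds 0.35 to the log2 ratio of the raw signals of a gene. In the text below, a pair of signals is given for Nrf2-/- non-tumor lung first and for Nrf2-/- tumor second, in arbitrary units before scaling. The number in parentheses after it is the scaled difference, tumor minus non-tumor, on the log2 scale. A gene below the background mark on 1 array has only a bound, written as "at least". For the bound, the measured level was divided by the dimmest measurable signal of the array on which the gene was not seen, or by the reading of the gene there if larger. Nfe2l2 itself had signals of 5.13 and 6.94 in the Nrf2-/- pools, below the background mark, against 7913 and 7478 in Nrf2+/+ non-tumor lung and tumor. A second probe gave 6.07 and 6.50, against 6147 and 6157.

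Of 32300 genes or transcripts on the array, 19425 could be measured in 1 pool or both, and 13797 of these had a gene symbol. Signals were higher in tumor by 2-fold or more for 1055 (5.43%) and lower to that extent for 1773 (9.13%), together 14.6%. These shares are the background against which each gene group below is read. Lists and their members were chosen with earlier results of these data known, so their counts are descriptions. Most of the excess of lower calls lay among genes measured in only 1 pool: 2600 genes were above background in non-tumor lung alone and 253 in tumor alone. The dimmest measurable signal was 20.6 on the Nrf2-/- non-tumor array and 29.4 on the dimmer Nrf2-/- tumor array. A dim gene at an equal level could therefore be measurable in non-tumor lung alone. Among the 16572 genes measured in both pools, 808 were higher and 873 lower. Scaling, background correction and filtering also changed the split. Genes higher in tumor made up 37.3% of calls here, 48.1% when arrays were scaled to their median, 21.3% when scaled to 7 spike-in probes, 58.0% with normexp background correction and 48.1% among genes measured in both pools. The median difference of all genes was -0.03, and median and spike-in scaling moved it by 0.14 and -0.28. Of the 57 gene lists described, 17 had a median that changed sign with spike-in scaling and 5 with median scaling, all of them lists with a median between -0.13 and 0.27. Past an 8-fold difference the order was the other way, with 209 genes higher and 122 lower. There was 1 array per side, so no difference carries a p-value. The error given is the estimate of the scanner software, 0.20 on the log2 scale for a typical difference, and it covers the measurement only.

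The genes furthest up were mostly dim in non-tumor lung. Ceacam10, a secreted member of the carcinoembryonic antigen family, had signals of 45.7 and 4295, a difference of 6.90 with a software error of 0.26. Serpinb5, the epithelial serpin known as maspin, had 25.8 and 1987 (6.61), and Gkn2, a gastrokine of the stomach lining, had 63.5 and 4283 (6.42). All of them were dim in non-tumor lung and bright in tumor. Pthlh, the hormone that acts on the parathyroid hormone receptor, had 66.6 and 2176 (5.38). A second probe of Pthlh gave 4.01. Ptprn, a protein of dense-core secretory granules, had 39.7 and 1246 (5.32). Tmem213 had 115 and 3686 (5.34), and St8sia6, a sialyltransferase, had 124 and 2984 (4.93). Bcl2l15, a member of the Bcl2 family, was already readable in non-tumor lung and had 823 and 19349 (4.90). Cela1, a pancreatic elastase, had 28.7 and 561 (4.63). The remaining genes among the 15 furthest up were Cd177 (6.72), Ubd (5.87), Nppa (5.98), Meg3 (5.85), Fetub (5.50) and Cyp2c40 (4.76). Software errors of these 15 differences and of the 15 furthest down lay between 0.20 and 0.34.

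Nppa, the precursor of atrial natriuretic peptide, was printed in 10 spots per array. The non-tumor spots read 30.2 ± 4.59 (SD over 10 spots of 1 array), from 19.4 to 35.0. The tumor spots read 1481 ± 88.1, from 1349 to 1582. The spots of both arrays did not overlap, and the difference was 5.98. In the Nrf2+/+ pair the same probe was above the background mark in non-tumor lung alone (64.0) and read 25.2 in tumor. Corin, the protease that cleaves the atrial peptide precursor, had 4.51 and 38.7 (at least 2.39-fold higher) in the Nrf2-/- pair. Nppb, the related brain natriuretic peptide, had 24.8 and 31.5 (0.69). Among the natriuretic receptors, Npr3, which clears the peptides, had 4336 and 1124 (-1.60), while Npr2 had 3924 and 1722 (-0.84) and Npr1 129 and 81.8 (-0.31). The gene is a marker of atrial muscle, and most other muscle genes were lower in tumor.

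The largest bounds among genes measured only in tumor were as follows. Besides Cldn2, Cltrn and Dlk1, with bounds of 110, 75.8 and 68.8-fold, these were Rian, a noncoding RNA of the imprinted Meg3 domain, with 16.6 and 974 (at least 60.2-fold higher), and Kng1, the plasma kininogen, with 12.3 and 926 (at least 57.2-fold higher). Rhbdl2, a membrane protease of the rhomboid family, had 9.81 and 548 (at least 33.8-fold higher). Rnf183, a ubiquitin ligase, had 5.22 and 402 (at least 24.8-fold higher). In non-tumor lung the signals of these genes ran from 5.22 to 21.8.

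**Figure D1:**
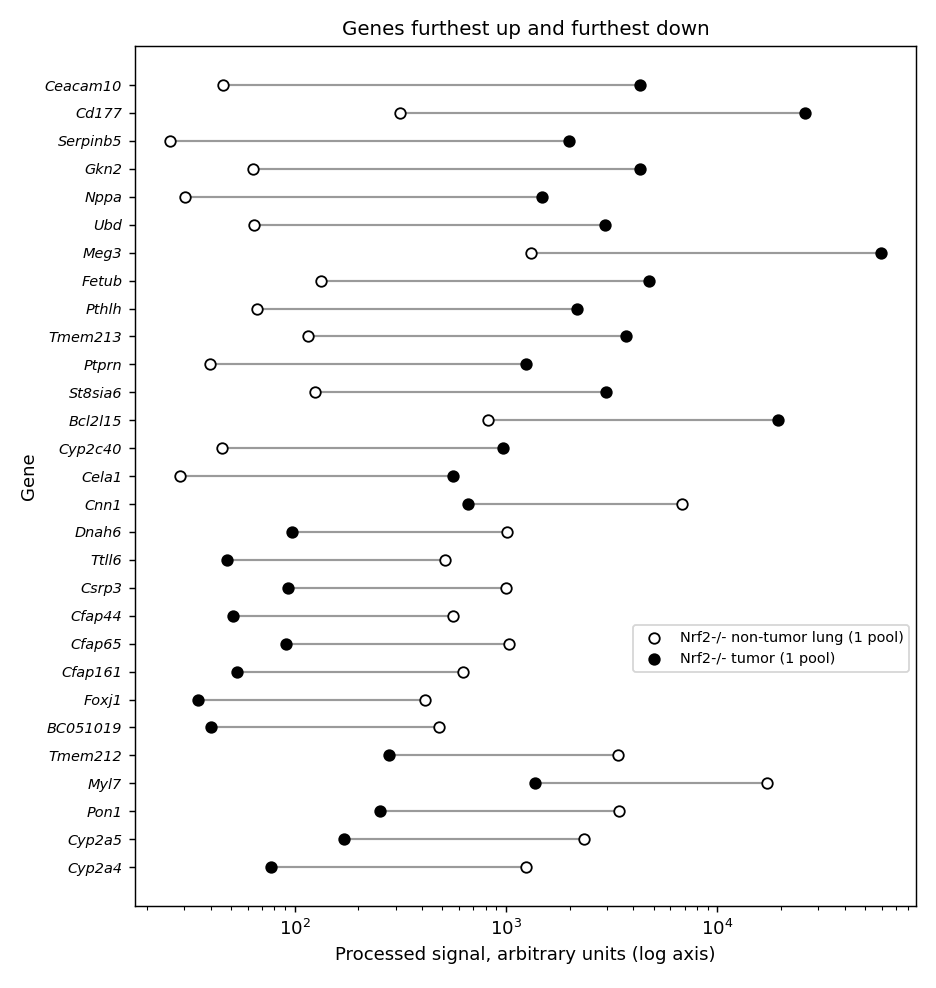
Processed signal (log axis, arbitrary units, before scaling) of the 15 genes furthest up and 14 of the 15 furthest down among genes measured on both arrays, with open circles for the Nrf2-/- non-tumor pool and filled circles for the Nrf2-/- tumor pool (1 array each). Meg3 reaches 59496 in tumor, whereas Nppa (30.2) and Serpinb5 (25.8) start low in non-tumor lung, and Myl7 is the brightest of the genes lower in tumor (17135 and 1376).

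All but one of the named genes furthest down were of 3 kinds: enzymes of foreign-compound metabolism, parts of motile cilia, and muscle. Cyp2a4 (-3.67) and Cyp2a5 (-3.43) are near-identical paralogs, so their probes may share signal and are not counted here as separate evidence. Pon1, an esterase of the paraoxonase family, had signals of 3439 and 252, a difference of -3.42 with a software error of 0.21. Cilia genes followed: Tmem212 (-3.25), Foxj1 (-3.22), Cfap161 (-3.21), Cfap65 (-3.16), Cfap44 (-3.10), Ttll6, a tubulin polyglutamylase (-3.07), and Dnah6 (-3.03). BC051019, which is given no kind here, stood at -3.25. Muscle genes were Myl7, the atrial myosin light chain, with 17135 and 1376 (-3.29), Csrp3, a Z-disc protein, with 1002 and 93.0 (-3.08), and Cnn1, the smooth muscle calponin, with 6833 and 664 (-3.02).

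Genes above background only in non-tumor lung had smaller bounds, since their non-tumor signals were between 319 and 434. Stk33, Dnah5, Ccdc81, Wdr63 and Fank1 are expressed in cells with motile cilia. Stk33, with 434 and 34.2, had the largest bound, and those of Dnah5, Ccdc81, Wdr63 and Fank1 were 9.79, 9.29, 8.86 and 8.54-fold. Cyp4f15, a cytochrome P450 of the fatty acid hydroxylase family, had 346 and 23.7 (at least 9.28-fold lower). The sarcomere genes Tnnc1 and Myoz2 had 322 and 24.8 (at least 8.63-fold lower) and 367 and 33.6 (at least 8.60-fold lower).

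Genes of multiciliated airway cells were lower as a group. Such cells carry motile axonemes built from outer and inner dynein arms, radial spokes and a central pair, and the program is driven by Foxj1 together with factors of the RFX family. Of 47 measured members of 3 cilia lists, 30 were at least 2-fold lower (63.8%, against 9.13% of all genes) and 0 were higher, with a median of -1.71. When genes below the mark in tumor are counted only where the bound itself passed 2-fold, 25 remained. Foxj1 had 415 and 35.0 (-3.22) and Myb, an upstream regulator, 261 and 26.0 (at least 6.97-fold lower). The 10 spots of Myb read 261 ± 16.1 (SD over 10 spots) and 26.0 ± 2.83. The tektins, filaments of the axoneme, were lower as well, with 3894 and 433 (-2.82) for Tekt1, 2051 and 337 (-2.26) for Tekt4 and 2979.8 and 717 (-1.71) for Tekt2.

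The dynein list had 17 of 21 members past 2-fold, all lower, with a median of -2.21. Of the 21, 8 were below the background mark in tumor. With bounds used for these, 13 were lower and the median was -1.56. Heavy chains gave 1176 and 161 (-2.52) for Dnah2, 354 and 60.3 (-2.21) for Dnah9 and 554 and 87.1 (-2.32) for Dnah11. Dnah8 was less far down, with 579 and 212 (-1.10). Among assembly factors, Zmynd10 had 989 and 189 (-2.04) and Dnaaf1 298 and 32.2 (at least 7.29-fold lower). These values depended on processing in size but not in direction. When further probes were averaged in, including those below the background mark, Dnah6 stood at -1.03, Dnah5 at -1.09 and the dynein list median at -1.09. With normexp background correction 10 of 21 dynein genes were past 2-fold and the median was -0.86. Radial spoke and central pair genes had 7 of 13 lower, with a median of -2.08. That median was -0.80 with normexp correction and -0.55 among the 8 genes measured in both pools, of which 3 were lower. Hydin, a central pair protein, had 437 and 53.2 (-2.69), the adenylate kinase Ak7 had 3356 and 367 (-2.85), and the spoke head gene Rsph4a had 183 and 8.39 (at least 4.90-fold lower). Members that did not pass 2-fold included Ropn1l, with 449 and 409 (0.21), and among regulators Rfx1, with 786 and 711 (0.20), Rfx2, with 139 and 60.9 (-0.85), and Ccno, with 660.3 and 262 (-0.99).

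Promoter sequence was looked at for these genes, because RFX factors bind the X-box, a motif found ahead of many cilia genes. Windows were found for 39 of the 47 genes. Windows from 250 bases before to 50 after each start site were taken from RefSeq (build GRCm38.p6), and the core GTTGCCNNG was searched on both strands. It stood in 12 of 44 windows of the cilia lists (27.3%), in 1644 of all 32851 windows (5%) and in 5.58% of windows of all measured genes. Members lower in tumor had it in 7 of 27 windows (25.9%) and members within 2-fold in 5 of 17 (29.4%), shares that lay close together. Among the 100 genes furthest down, whose windows numbered 89, the share was 20.2%, and among the 100 furthest up 3.03%. These shares describe letters in a window and do not show binding. The interferon-stimulated response element (GAAANNGAA) was in 47.5% of windows of interferon-induced genes and in 8.56% of all windows. The 250 bases ahead of the start site are printed for 5 genes: 4 cilia genes lower in tumor, chosen because they hold the X-box core, and the chemokine gene Cxcl9, higher in tumor, which holds the interferon element. Of the cilia genes shown, Tekt2 belongs to the lists counted above, and Cfap161, Mns1 and Drc1 do not. They are written 5' to 3' on the strand of the gene, with the match in capitals; a match to the reverse complement appears as its complement.
Cfap161: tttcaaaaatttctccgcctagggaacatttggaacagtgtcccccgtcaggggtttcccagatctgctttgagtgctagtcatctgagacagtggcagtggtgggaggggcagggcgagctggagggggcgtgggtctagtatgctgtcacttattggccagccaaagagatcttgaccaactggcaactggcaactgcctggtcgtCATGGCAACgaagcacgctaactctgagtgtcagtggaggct
Mns1: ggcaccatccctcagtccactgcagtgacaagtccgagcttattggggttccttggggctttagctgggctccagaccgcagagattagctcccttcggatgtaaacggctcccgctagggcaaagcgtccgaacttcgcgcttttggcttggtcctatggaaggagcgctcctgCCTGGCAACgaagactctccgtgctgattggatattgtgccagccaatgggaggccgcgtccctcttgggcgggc
Drc1: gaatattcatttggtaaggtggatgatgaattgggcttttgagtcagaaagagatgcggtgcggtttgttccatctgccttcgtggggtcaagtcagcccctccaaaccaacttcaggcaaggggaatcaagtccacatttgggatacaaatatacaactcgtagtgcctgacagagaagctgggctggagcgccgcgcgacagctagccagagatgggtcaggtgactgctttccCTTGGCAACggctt
Tekt2: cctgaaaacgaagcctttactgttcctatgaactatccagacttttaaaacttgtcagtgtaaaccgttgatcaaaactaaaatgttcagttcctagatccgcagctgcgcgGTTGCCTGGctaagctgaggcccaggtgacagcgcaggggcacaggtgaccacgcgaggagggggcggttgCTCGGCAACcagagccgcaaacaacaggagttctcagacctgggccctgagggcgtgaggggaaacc
Cxcl9: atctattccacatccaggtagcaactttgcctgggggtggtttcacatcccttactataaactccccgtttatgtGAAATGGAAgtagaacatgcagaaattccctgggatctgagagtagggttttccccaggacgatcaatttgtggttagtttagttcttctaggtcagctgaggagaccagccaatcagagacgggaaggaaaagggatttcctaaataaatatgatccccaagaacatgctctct
The windows lie at chr7:83794840-83795089, minus strand, for Cfap161; chr9:72438279-72438528, plus strand, for Mns1; chr5:30281143-30281392, plus strand, for Drc1; chr4:126325647-126325896, minus strand, for Tekt2; and chr5:92328080-92328329, minus strand, for Cxcl9. Mns1, a structural protein of the axoneme, had 2525 and 292 (-2.77), and Drc1, of the nexin-dynein regulatory complex, had 4761 and 616 (-2.60). The match ended 33 bases before the start site in Cfap161, 66 in Mns1 and 5 in Drc1, and Tekt2 held 2 matches.

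Non-ciliated airway cells gave a mixed picture. Of 25 measured genes of club and secretory cells, 11 were lower and 5 higher, with a median of -0.91. Scgb1a1, the club cell secretoglobin, had 194513 and 64653 (-1.24), Cyp2f2, the club cell P450 that activates naphthalene, had 68799 and 9689.7 (-2.48), and the claudin Cldn10 had 1645 and 222 (-2.55). Gabrp, a GABA receptor subunit, had 1563 and 225 (-2.45), and Chad, chondroadherin, 591 and 72.1 (-2.69). Members on the other side were genes of mucous secretion. Muc5b had 398 and 1198 (1.93), Muc5ac had 58.5 and 168 (1.86), the goblet cell factor Spdef had 170.5 and 290.1 (1.11) and Foxa3 had 11.9 and 145 (at least 8.99-fold higher). Bpifa1, a secreted airway defence protein, had 19.2 and 96.6 (at least 5.97-fold higher).

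Among enzymes that handle foreign compounds, calls were more often lower than higher. Of 27 measured P450 genes, 9 were lower and 3 higher, with a median of -0.63 that was -0.29 with normexp correction. Cyp2s1 had 23027 and 3672 (-2.30) and Cyp2j9 486 and 137 (-1.48). On the other side, Cyp1b1, which oxidises polycyclic hydrocarbons and estradiol, had 74.4 and 256 (2.13), and Cyp4a12a, a fatty acid hydroxylase, 46.3 and 168 (2.20). Among carboxylesterases, paraoxonases and flavin monooxygenases, 6 of 14 were lower and 0 higher. Fmo2 had 8737 and 2599 (-1.40), Fmo1 5521 and 1713 (-1.34) and the carboxylesterase Ces2g 497 and 155 (-1.33). The aldehyde and retinoid enzymes lay evenly around 0, with 2 higher and 3 lower of 22. Among them, Adh1 had 8274 and 2419 (-1.43) and Aldh1a1 69993 and 25952 (-1.09), whereas the aldo-keto reductase Akr1b8 had 14824 and 27342 (1.23) and the aldehyde oxidase Aox1 1435 and 2862 (1.34). Several of these genes are at their highest in club cells, whose markers were also lower; the part of that in the enzyme values was not tested.

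Alveolar type 2 cells make surfactant, and their genes stood higher in tumor. Of 24 measured members 12 were past 2-fold upward, against 5.43% of all genes, and 1 downward, with a median of 0.98. With spike-in scaling 7 were higher (median 0.70), and with quantile normalization 9 (median 0.74). Surfactant proteins were near the top of the scale in both pools: Sftpc had 276632 and 266292 (0.29), Sftpa1 116761 and 142600.5 (0.63), Sftpb 61291 and 126848 (1.39) and Sftpd 70041 and 111806 (1.02). Of these, Sftpc and Sftpa1 were within 2-fold. Cebpa, a transcription factor of type 2 cell maturation, had 4111 and 11527 (1.83), Chil1, a chitinase-like secreted protein, had 16359 and 55243 (2.10), and the phosphate transporter Slc34a2 had 5456 and 9666 (1.17). Lamp3 and Abca3, of the lamellar body, had 15313 and 21909.6 (0.86) and 10048 and 14676 (0.89). Pgc, the member on the low side, was a dim gene with 40.2 and 10.2 (at least 1.08-fold lower).

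Type 1 cells line the gas exchange surface, and 7 of 20 of their genes were lower and 0 higher, with a median of -0.77. Igfbp2 had 11143 and 2992 (-1.55), Hopx 26003 and 9759.5 (-1.07) and the anchoring protein Akap5 14265 and 4919 (-1.19). The best-known markers differed less. Ager had 22469 and 12225 (-0.53) and Pdpn 656 and 423 (-0.29), while Aqp5, a water channel, had 28014 and 34314 (0.64).

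**Figure D2:**
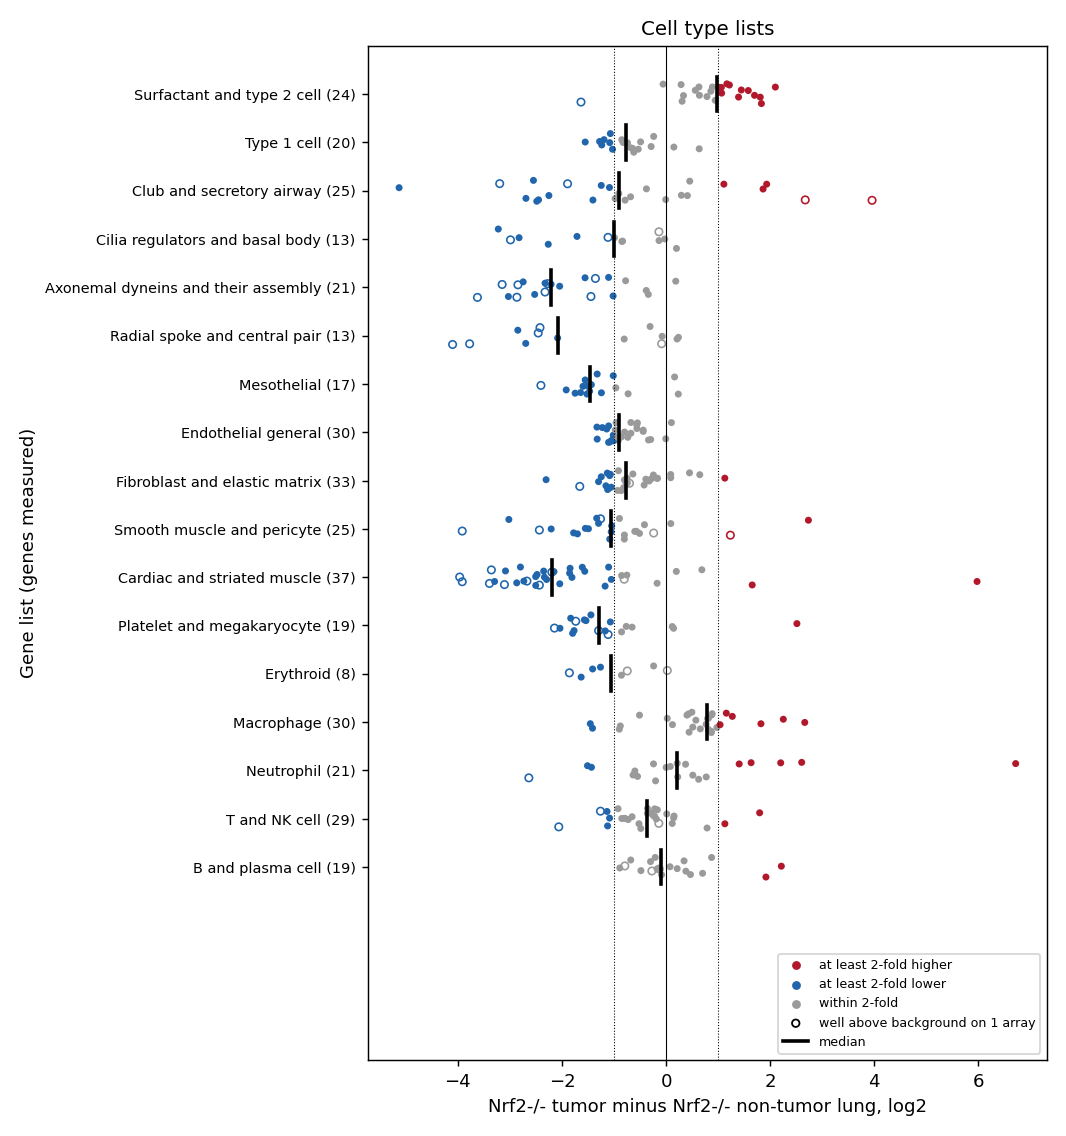
Difference between the Nrf2-/- tumor and Nrf2-/- non-tumor pools (log2, 1 array each) for every measured gene of 17 cell type lists, with points coloured by the 2-fold marks (dotted lines), open points for genes well above background on 1 array only, and a bar at the list median. Dynein, radial spoke and cardiac muscle lists have medians of -2.21, -2.08 and -2.19, the type 2 list one of 0.98, and Nppa and Myh7 sit apart on the right of the cardiac list.

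Genes usually expressed in the gut or liver formed the list furthest up. That list was chosen with earlier results of these data known, so its place is a description. Of 30 measured members 20 were higher and 3 lower, with a median of 2.29 that was 1.37 over all 41 members without a background filter. Counted with bounds 1 was lower, and with normexp correction 0. Plasma proteins made in liver were prominent. Fgg and Fga, chains of fibrinogen, had 1424 and 16317 (3.86) and 135 and 1187 (3.48), while the third chain, Fgb, was below the background mark in both pools. Ahsg had 223 and 1721 (3.29), transferrin (Trf) 9695 and 56260.4 (2.88), Apoc1 19493 and 92784 (2.60) and Rbp4, the retinol carrier, 5472 and 14928 (1.79). Afp, alpha-fetoprotein, was printed in 10 spots, which read 664 ± 40.5 and 2990 ± 134 (SD over 10 spots; 2.52). Hpn, a membrane protease of hepatocytes, had 4797 and 18428 (2.29). Gut-type genes were Mogat2, of fat absorption, with 56.0 and 416 (3.24), and Vil1, of the brush border, with 166 and 432 (1.72). Not all such genes were higher, since the trefoil factor Tff2 had 119.7 and 10.3 (at least 3.21-fold lower). Foxa1 was measured only in non-tumor lung, at a signal of 23.3. That lies below the dimmest measurable signal of the tumor array (29.4), so Foxa1 has no bound and no direction.

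Acute-phase genes overlapped with these, and 11 of 19 were higher and 1 lower (median 1.13). Orm1 and Orm2, the orosomucoids, had 30.0 and 289 (3.61) and 83.2 and 604 (3.20) and are close paralogs. Lcn2, an iron-binding defence protein, had 4442 and 21311 (2.61), Itih4 3439 and 13337 (2.30), Cd14, the endotoxin co-receptor, 6258 and 24251 (2.30) and Lbp 10135 and 17448 (1.13). A2m had 15.8 and 269.6 (at least 16.7-fold higher). Haptoglobin (Hp) had 98747 and 77489 (-0.01) and Saa1 452 and 439.7 (0.30), within 2-fold, and Hamp, the iron hormone hepcidin, was measured only in non-tumor lung (at least 5.53-fold lower in tumor).

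Surface proteins of glandular epithelium stood higher as well. In the list of carcinoembryonic antigen, mucin and Ly6 genes, 9 of 18 were higher and 1 lower, with a median of 1.37. Ly6d, a GPI-anchored surface protein, had 1752 and 32663 (4.57) and its relative Ly6k 1599.8 and 7222 (2.52). The membrane mucins Muc1, Muc4 and Muc20 had 2979 and 8231 (1.81), 242 and 1174 (2.62) and 5813 and 18154 (1.99). Epcam, a general epithelial marker, was within 2-fold at 288 and 416 (0.88). The simple-epithelium keratins Krt8 and Krt18 had 26371 and 44383 (1.10) and 14895 and 29539 (1.33), and Krt23 9165 and 17768 (1.30). Tight junction genes were split, 4 higher and 4 lower of 20: Cldn3 had 11252 and 21111 (1.25), whereas Cldn5, the endothelial claudin, had 59832 and 23116 (-1.03). Among adhesion genes, the splicing factors Esrp1 and Esrp2 had 155 and 301 (1.30) and 1748 and 3468 (1.33), and Snai2, a repressor of epithelial genes, had 3419 and 1310.0 (-1.04). Of 17 serpins 4 were higher and 1 lower, with a median of -0.13 that was above 0 with median scaling. Serpinb10, the lower one, had 165 and 45.9, Serpine2 had 664 and 1832 (1.81) and Serpinf1 3909.7 and 6734 (1.13).

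Imprinted genes lay on both sides, with 5 higher and 5 lower of 21. Meg3, Dlk1 and Rian, which lie in one domain, were the furthest up. Phlda2, a growth-restraining gene of the placenta, had 649 and 2829 (2.47). On the other side, Cdkn1c, a Cdk inhibitor, had 1714 and 471 (-1.52), Mest 766 and 260.5 (-1.21), Ndn 748 and 277 (-1.09) and Peg12 218 and 55.0 (-1.64). Igf2, printed in 10 spots, read 425 ± 22.2 and 166 ± 6.67 (SD over 10 spots; -1.01).

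Output genes of the Ras and MAPK pathway were higher more often than lower. Of 27, 9 were higher and 1 lower, with a median of 0.61; with spike-in scaling 6 were higher and the median was 0.33. Etv4, an Ets factor induced by the pathway, had 26.3 and 343 (4.05), and Dusp4, a phosphatase that restrains it, had 86.4 and 269 (1.98). The immediate early genes Egr1 and Junb had 428 and 1109 (1.72) and 17548 and 30642 (1.15), while Dusp1 had 4991 and 1717 (-1.19). Dusp6 and Spry2, feedback inhibitors, had 8476 and 11764 (0.82) and 1356 and 1729.9 (0.70), within 2-fold. The epithelial Ets factors Elf3, Elf5 and Ehf had 130.1 and 260.2 (1.34), 2574 and 5769 (1.51) and 287 and 492 (1.12). In the list of EGF family ligands and receptors 3 were higher and 2 lower of 15. The ligands past 2-fold upward were Areg with 96.8 and 720.4 (3.24), Ereg with 8.25 and 96.9 (at least 5.99-fold higher) and Hbegf with 1509 and 2820.4 (1.25). Other ligands of the receptor, Tgfa with 75.6 and 83.5 (0.49) and Btc with 31.8 and 37.6 (0.58), were within 2-fold. The receptor itself, Egfr, was lower, its 10 spots reading 3111 ± 174 and 1158 ± 66.6 (SD over 10 spots; -1.08).

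Wnt pathway genes had 10 of 35 lower and 4 higher, with a median of -0.64. With normexp correction 2 were lower and 2 higher. Rspo1, which is made by mesothelium and strengthens Wnt signals, had 9477 and 2603 (-1.52), and Wnt11 and Wnt3a had 192 and 46.3 (-1.70) and 1286 and 426 (-1.25). The feedback genes Notum and Axin2 had 106 and 30.9 (at least 2.70-fold lower) and 63.5 and 6.74 (at least 1.70-fold lower). On the high side, Dkk2, a secreted inhibitor, had 25.5 and 164 (3.03), Frzb 4.36 and 57.3 (at least 3.54-fold higher) and the stem cell receptor Lgr5 56.3 and 130.4 (1.56). Among factors of lung lineages, Sox9, a factor of distal buds, was measured only in tumor, with 7.68 and 42.4 (at least 2.62-fold higher), and Sox2, of airways, only in non-tumor lung, with 71.7 and 6.70 (at least 1.92-fold lower). Id2 had 4806 and 12631 (1.74), Tbx3 13723 and 4705 (-1.20) and Nkx2-1 2809.6 and 2794 (0.34).

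Genes known as Nrf2 targets were examined in a setting where Nrf2 was absent from both pools. Of 33 measured members 5 were higher and 0 lower. With spike-in scaling 5 were higher and 5 lower, and the median of 0.27 became -0.01. Me1, malic enzyme, which supplies NADPH, had 772 and 3257 (2.42). Osgin1 had 2147 and 5939 (1.81), Hmox1, heme oxygenase, 3776 and 8434 (1.50), and Gclc, the catalytic subunit of glutathione synthesis, 2625 and 5323 (1.36). Slc7a11, the cystine importer, had 12.1 and 54.1 (at least 3.34-fold higher). Most members stayed within 2-fold, among them Txnrd1 with 3659.6 and 4329.7 (0.59) and Srxn1 with 2920.2 and 2138 (-0.10). Nqo1, the quinone reductase often used as a readout of Nrf2, and Gclm were dim: Nqo1 had 78.8 and 34.7 (at least 1.79-fold lower) and Gclm 61.4 and 24.4 (at least 1.64-fold lower). The partners Keap1 and Nfe2l1 had 6219 and 5207 (0.09) and 10099.5 and 8289 (0.06). Glutathione transferases were split, 3 higher and 4 lower of 21. Mgst2 had 5919 and 12609.9 (1.44) and Gsto1 14246 and 23078 (1.04), while Gsta3 had 14658 and 4694 (-1.30). Gsta1 and Gsta2 are near-identical, so their values, 159 and 5.89 (at least 4.25-fold lower) and 51.9 and 6.86 (at least 1.39-fold lower), may share signal. The core of the antioxidant response element (TGACNNNGC) stood in 33.3% of windows of the Nrf2 target list and in 12.4% of all windows.

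Proliferation genes differed little between the pools. Of 36 cell cycle genes 1 was higher and 0 lower, with a median of 0.26 that became -0.02 with spike-in scaling. Mki67, the usual proliferation marker, had 1312 and 1230.0 (0.25), Top2a 51.3 and 36.3 (-0.16), and Cdk1 143 and 171 (0.60), and Ccnb1 stood at 0.35. The single member past 2-fold was the dim gene Cdc25c, with 18.7 and 52.2 (at least 3.23-fold higher). In the p53 and Cdk inhibitor list, 2 were higher and 1 lower of 29. Gadd45g had 15155 and 30439.8 (1.35), and Cdkn1a and Cdkn2a had 6803 and 5995 (0.16) and 202 and 166 (0.06).

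Genes of sugar use had 5 of 33 higher and 0 lower, with a median of 0.39. With spike-in scaling 4 were higher and 1 lower, and the median was 0.11. A list of 17 reference genes, often taken as constant, also had a median of 0.39, with 16 above 0. Small positive medians of other lists are to be read beside that value. Ldha, lactate dehydrogenase, had 19155 and 44537 (1.56), Hk2 1429 and 3275 (1.54) and the hypoxia-induced genes Ankrd37 and Egln3 546 and 2745 (2.67) and 64.2 and 146 (1.53). Vegfa, also induced by hypoxia, had 23039 and 11807 (-0.62), and Car9 had 81.9 and 84.5 (0.39). Gapdh, often taken as a constant gene, had 22904 and 37091 (1.04). In fatty acid synthesis, Fasn had 72531 and 118926 (1.06), Scd1, stearoyl-CoA desaturase, 33683 and 72278 (1.45) and Elovl1 66290.1 and 121178 (1.22), and 3 of 34 members were higher and 0 lower. Amino acid genes included Psat1, of serine synthesis, with 633 and 1140.1 (1.19), and Slc7a5 with 177 and 339.6 (1.28). Proteasome subunits lay in a narrow band: 0 of 31 were past 2-fold in either direction, with a median of 0.21 that became -0.07 with spike-in scaling.

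**Figure D3:**
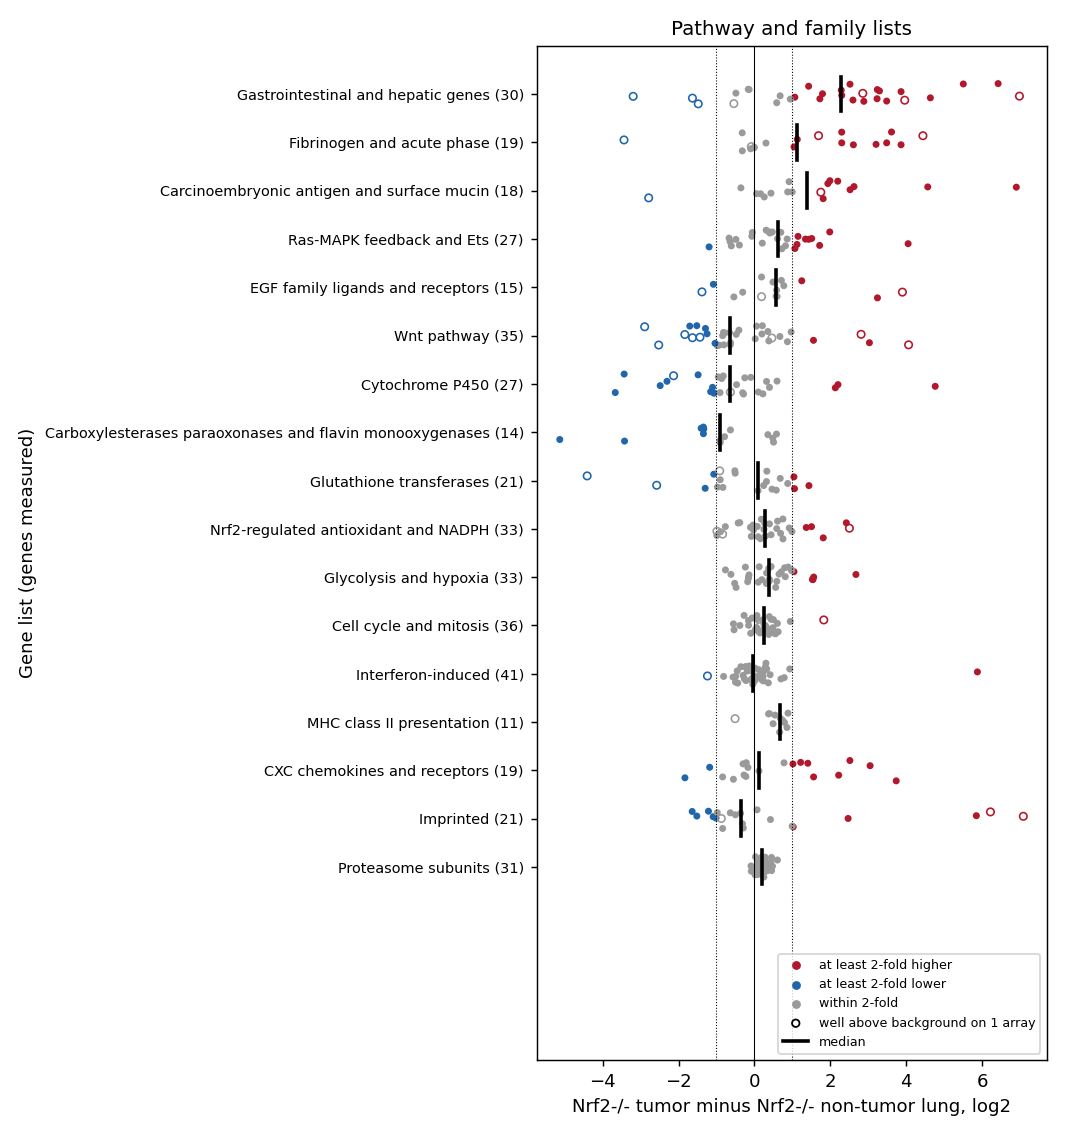
Difference between the Nrf2-/- tumor and Nrf2-/- non-tumor pools (log2, 1 array each) for every measured gene of 17 pathway and family lists, drawn like the plot of cell type lists. The gastrointestinal and hepatic list has a median of 2.29, Ubd stands alone at 5.87 in the interferon list whose other genes cluster around 0, and proteasome genes fill a narrow band near 0.

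Chemokines were uneven. Of 19 CXC ligands and receptors 8 were higher and 2 lower. Cxcl9, which draws activated T cells, had 384 and 2499.9 (3.05) and Cxcl10 369 and 857 (1.56). The neutrophil-attracting ligands differed in direction: Cxcl3 had 50.7 and 531 (3.73) and Cxcl1 236 and 375 (1.01), but Cxcl5 had 206 and 71.8 (-1.18). Cxcl17, a mucosal chemokine, had 643 and 2356 (2.22). Cxcr2, the receptor of the neutrophil-attracting ligands, had 150.1 and 313 (1.41). Among CC chemokines, Ccl20 had 47.3 and 235 (2.66) and Ccl8 1109.8 and 4199 (2.27), while Ccl11, eotaxin, had 58.4 and 11.7 (at least 1.57-fold lower). Of the cytokines, Il33, an alarmin of epithelium, had 5194 and 13298 (1.70), Il34, a ligand of the macrophage growth factor receptor, 2798 and 7159 (1.70) and Tnfsf9 26.3 and 266 (3.69). The other ligand of that receptor, Csf1, was lower: its 10 spots read 4241 ± 261 and 1575 ± 104 (SD over 10 spots; -1.08). Ifng, interferon gamma, had 128 and 349.9 (1.80).

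The list of interferon-induced genes had 1 higher and 1 lower of 41 and a median of -0.04, which was 0.09 with median scaling. Irf1 had 28657 and 20865 (-0.11), Isg15 1924 and 1759 (0.21) and Ifit1 813 and 520.1 (-0.30). Ubd, a ubiquitin-like modifier induced by interferon gamma and tumor necrosis factor, was the only member past 2-fold upward, with 64.0 and 2955 (5.87). Cxcl9, whose window holds the interferon element, and Cxcl10 were also higher but were counted with the chemokines and not in this list. MHC class II genes stood slightly above 0: 10 of 11 had a positive difference, none was past 2-fold, and the median was 0.66. Cd74, the invariant chain, had 64803 and 88345 (0.79), and H2-Ab1 and H2-Aa had 62505 and 77982 (0.66) and 11903 and 15637 (0.74). In class I presentation no member of 16 was past 2-fold, and B2m had 57797 and 56099 (0.30). The complement list had 4 higher and 1 lower of 26, with C4bp, an inhibitor, at 24.4 and 321 (4.06) and Cfi at 607 and 1429 (1.58).

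Markers of immune cells differed by type. Macrophage genes had 6 higher and 2 lower of 30, with a median of 0.79; with spike-in scaling 3 were higher and 4 lower. Arg1 had 23.9 and 119 (2.67) and Retnla 5062 and 14108 (1.82), while Spp1, osteopontin, read 17910.1 ± 897 and 67186 ± 1386 over 10 spots (2.25). The scavenger receptors Cd163 and Marco had 141 and 40.6 (-1.45) and 23510.5 and 10071 (-0.88), and the folate receptor Folr2 had 631 and 187 (-1.41). Neutrophil genes had 5 higher and 3 lower of 21, and with normexp correction 5 and 0. The higher members were Cd177, Lcn2, Cxcr2, Hdc, the histamine-forming enzyme, with 20987 and 76149.6 (2.20), and Il1r2, a decoy receptor, at 1.64. The granule genes Mpo, Ngp and Camp had 129 and 37.6 (-1.43), 125 and 34.7 (-1.51) and 64.4 and 8.17 (at least 1.73-fold lower), and S100a8 and S100a9 had 1576 and 799.9 (-0.63) and 30337 and 16344 (-0.55). Of 29 T and NK cell genes 5 were lower and 2 higher: Prf1, perforin, had 608 and 218 (-1.13) and Cd8a 302 and 258 (0.12), whereas the checkpoint receptor Pdcd1 had 164 and 284 (1.13). In the B and plasma cell list, Jchain had 1391 and 5089.6 (2.22) and Fcer2a 481 and 1434 (1.92), the 2 members past 2-fold.

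Genes of the structural cells of normal lung were past 2-fold downward more often than upward, though most endothelial and fibroblast genes were within 2-fold. General endothelial genes had 11 of 30 lower and 0 higher, with a median of -0.90. Genes of capillary, artery, vein and lymphatic endothelium had 5 of 26 lower and 0 higher, with a median of -0.73. Pecam1, a surface protein of endothelium, read 2466 ± 132 and 904 ± 45.0 over 10 spots (-1.10), and Kdr, the receptor for Vegfa, 11688 ± 613 and 4285 ± 206 (-1.10). Tek, the angiopoietin receptor, had 2558 and 803 (-1.33), and Cdh5 8459 and 3835 (-0.80). Fibroblast genes had 11 of 33 lower and 1 higher, with a median of -0.76: Pi16 had 738 and 118 (-2.30), Tcf21 5794 and 1926 (-1.24) and Fbln2 10078 and 3231 (-1.30). Of 25 collagens 6 were lower and 1 higher, with a median of -0.39. Col8a2 had 482 and 102 (-1.89) and Col4a3 1443 and 469 (-1.28), the fibrillar collagen Col1a1 had 17018 and 16167 (0.27), and Col15a1, a basement membrane collagen, was the member higher in tumor, with 175 and 1251 (3.19). Mesothelial genes, which mark the pleura, had 13 of 17 lower and 0 higher, with a median of -1.47. Msln had 15234 and 4208 (-1.51), Lrrn4 845 and 176 (-1.92) and Upk1b 649.9 and 153 (-1.75), and the 10 spots of Wt1 read 208 ± 7.34 and 66.2 ± 11.7.

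Smooth muscle genes had 14 of 25 lower and 2 higher. Acta2 read 27174 ± 1913 and 7299 ± 387 over 10 spots (-1.55), Myh11, smooth muscle myosin, had 2049 and 349 (-2.21), and Actg2 1499.5 and 345 (-1.77). Rgs5, a marker of pericytes, was higher, with 213 and 1116 (2.74). Cardiac and striated muscle genes were the lowest cell type group outside the cilia lists: 29 of 37 were lower and 2 higher, with a median of -2.19 that was -1.15 with normexp correction. Tnnt2 had 2108 and 239 (-2.80), Actc1 4334 and 602 (-2.50), Mb, myoglobin, 2382 and 371 (-2.34) and Tcap 2818 and 304 (-2.87). Both members on the high side were Nppa and Myh7, a myosin heavy chain with 39612 and 98289 (1.66), and Myh6 had 8467 and 5922 (-0.17). Summed over the list, signals were 127570.1 in non-tumor lung and 123305 in tumor for cardiac muscle, and 68690.3 and 34071 for mesothelium. Myh7 alone held most of the cardiac sum in tumor, so that sum hides the lower values of the other members. The part of these tissues in the other differences was not tested.

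Blood cell genes were also lower. Of 19 platelet genes 13 were lower, with a median of -1.29, and 5 with normexp correction: Gp9 had 1122 and 255 (-1.79), Treml1 852 and 163 (-2.04) and Clec1b 1145 and 332 (-1.44). Pf4, platelet factor 4, was higher, with 5439 and 24469 (2.52), while its neighbour Ppbp had 1877 and 415 (-1.83). Of 8 erythroid genes 4 were lower, including Alas2, the heme synthesis enzyme of red cells, with 22863 and 6774 (-1.41) and the band 3 gene Slc4a1 with 876 and 288 (-1.26). Of 14 genes of fat cells 4 were lower and 1 higher, with a median of -0.50. The furthest down gave 392 and 68.3 (-2.18) for Slc2a4, the insulin-responsive glucose transporter, and 1218 and 193 (-2.32) for Cidea, while Fabp4, a fatty acid carrier, was higher, with 5603 and 10670.2 (1.27). Neural and neuroendocrine genes had 6 of 13 lower, with 142 and 45.3 (-1.30) for Calca and 1119 and 333 (-1.41) for Ddc. The granule gene Ptprn, higher in tumor (5.32), is not a member of this list. Of the 13, 6 were measured in non-tumor lung alone, 4 were lower with bounds, and 1 was lower with normexp correction.

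Technical repeats within the arrays bore on single genes. Genes with 10 spots numbered 137 among those measured and named, of which 33 were past 2-fold, and in 32 of these the spots of the 2 arrays did not overlap. Gata1 was the exception. Spots were compared before scaling, and those of some genes within 2-fold did not overlap either, such as Acaa2 (0.05) and Ptprc (0.04). A lack of overlap therefore does not set the called genes apart. Of 262 called genes measured with a further probe, 257 (98.1%) had the other probes on the same side of 0. These checks cover spots and probes of the same 2 RNA pools and not animals.

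The same tissues of Nrf2+/+ mice gave values side by side, with the non-tumor array of that pair on another slide. In that pair, of 19913 measured genes, 1608 were past 2-fold upward (8.08%) and 3053 downward (15.3%), together 23.4%. The pairs share no array. Of 896 genes higher in Nrf2-/- tumor and measured in both pairs, 659 were also higher in Nrf2+/+ tumor, 211 were within 2-fold and 26 were lower. The 659 are 73.5% of the Nrf2-/- list and 45.6% of the Nrf2+/+ list. Of 1513 genes lower in Nrf2-/- tumor, 1256 were lower in Nrf2+/+ tumor as well, which is 83.0% and 48.8% of the lists. With 4 arrays the difference between the differences has no residual degree of freedom, and it was not tested.

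Several genes among the 15 furthest up had other values in the Nrf2+/+ pair. Ubd stood at 0.19 there, with signals of 323 and 268, against 64.0 and 2955 in the Nrf2-/- pair. Ptprn stood at 0.52, with signals of 34.9 and 36.4. Pthlh stood at 2.75 and Cyp2c40 at 7.56. The others were closer: Meg3 6.18, Fetub 5.85, Cd177 6.93, Tmem213 4.41, St8sia6 4.42, Bcl2l15 4.36 and Cela1 4.35, with Ceacam10 at least 82.2-fold higher, Serpinb5 at least 93.8-fold higher and Gkn2 at least 219.9-fold higher. Fga, Fgg and Ly6d, high in Nrf2-/- tumor, stood at 0.02, 0.90 and 0.50. Sox9 was at least 55.4-fold higher. Among the 15 furthest down, Cyp2a4 stood at -2.27, Cyp2a5 at -2.24, Pon1 at -2.68, Myl7 at -2.70 and Csrp3 at -3.11. The cilia genes of that set ran from -2.41 for Dnah6 to -2.13 for Ttll6, with Tmem212 at -2.34, Cfap44 at -2.29, Foxj1 at -2.24, Cfap161 at -2.20 and Cfap65 at -2.20. BC051019 stood at -2.34.

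Gene lists of the pairs lay on the same side of 0 for the groups furthest out: gastrointestinal and hepatic genes (2.29 in the Nrf2-/- pair and 2.48 in the Nrf2+/+ pair), dyneins (-2.21 and -1.90), cardiac muscle (-2.19 and -2.50) and mesothelium (-1.47 and -1.60). Cell cycle genes had 1 of 36 higher in the Nrf2-/- pair and 19 in the Nrf2+/+ pair, with medians of 0.26 and 1.05. Mki67 stood at 1.10 and Cdk1 at 1.74 in the latter. Interferon-induced genes had 1 and 15 lower, with medians of -0.04 and -0.86. Neutrophil genes had medians of 0.22 and -0.86, B and plasma cell genes -0.09 and -1.05, and carcinoembryonic antigen and mucin genes 1.37 and 0.51. None of these differences between pairs was tested.

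**Figure D4:**
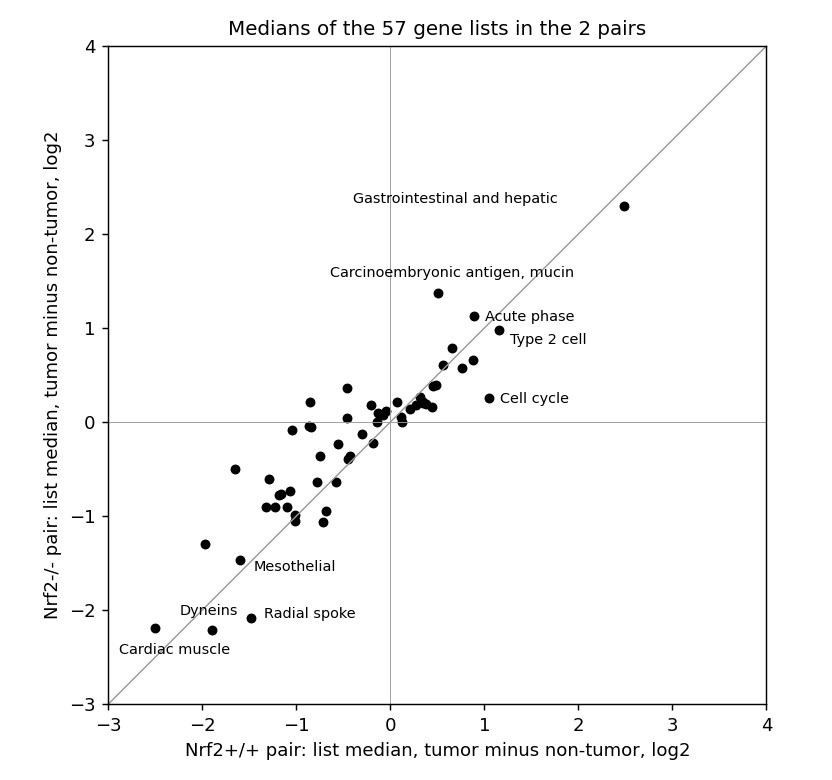
Median tumor minus non-tumor difference (log2) of each of 57 gene lists, with the Nrf2+/+ pair on the horizontal axis and the Nrf2-/- pair on the vertical axis (1 array per group); the diagonal marks equal medians. The cell cycle list lies below the diagonal (0.26 against 1.05) and the carcinoembryonic antigen and mucin list above it (1.37 against 0.51).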

How the data were processed

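RNA pools of 8 mice per group, 500 ng each, were measured on 1-colour Agilent whole mouse genome arrays. The deposited intensity values are processed signals of Feature Extraction 10.7.3.1, background-subtracted, per the file headers. Control spots were left out, as were 4 probes flagged as non-uniform. Spots of a probe were averaged. Log2 signals were scaled by subtracting the 75th percentile of each array, and the brightest probe represented a gene. Of 41174 probes, 26686 had a gene symbol. Genes well above background on 1 of the 2 arrays or both were kept. With 1 array per group no test was possible, and 2-fold was used as a mark of size. The text names the 15 genes furthest up and furthest down and the 8 largest bounds each way, plus members of the gene lists; a few of these genes are not reported here. Members and lists were chosen with earlier results of these data known. Alternatives were median, quantile and spike-in scaling, normexp correction with an offset of 50 (on median signals, since no mean signal column was used), other filters, averaged probes and a 3-fold mark. The scaling and the differences of single probes were tested on simulated data. Filters, bounds and the choice of the brightest probe were not part of that test. Symbols and promoters came from RefSeq tables (GRCm38.p6). Python 3.11.15, numpy 2.4.6, pandas 2.3.3, matplotlib 3.10.9, R 4.3.3 and limma 3.58.1 were used.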

Additional observations from a re-analysis of the deposited data

Results flagged for a closer look

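Among 18785 genes measured in both pairs, 26 lay past 2-fold higher in Nrf2-/- tumor and lower in Nrf2+/+ tumor, and 13 the other way round, bounds not considered. With 1 array per group the difference between pairs was not tested. The named genes measured on all 4 arrays are given here. Nppa is added, although it was not measured on all 4 arrays. It is not among the 26, since its difference in the Nrf2+/+ pair was -0.90. Gm10825 stood at -1.38 in the Nrf2-/- pair and 1.45 in the Nrf2+/+ pair. Fras1, a basement membrane protein, stood at -1.32 and 1.06. Cxcl5, a neutrophil chemokine, stood at -1.18 and 2.85. Spic, a factor of iron-recycling macrophages, stood at 1.02 and -1.28. Acod1, the itaconate enzyme of activated macrophages, stood at 1.80 and -1.40. Nppa aside, signals of these genes over the 4 arrays ran from 51.7 (Cxcl5, Nrf2+/+ non-tumor lung) to 413 (Fras1, Nrf2+/+ tumor). Nppa stood at 5.98, and in the Nrf2+/+ pair it was measured in non-tumor lung alone and was at least 1.87-fold lower in tumor.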

How the results depend on the processing

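The count of genes at least 2-fold lower in Nrf2-/- tumor (1773) was 2748 with spike-in scaling, 526 with normexp background correction and 873 when a gene had to be measured on both arrays. The count of genes at least 2-fold higher (1055) was 1640 without a background filter. A 3-fold mark left 560 higher and 730 lower. Spike-in scaling moved every difference by the same amount, -0.28, and the 3-fold mark changed only the cutoff. The cause of the other shifts was not tested, beyond the smaller or larger number of genes kept by the filters. The other settings kept both counts within 1.5 times. All 57 list medians moved by over 0.2 with spike-in scaling, through that single shift, and 17 changed sign. Normexp correction moved 43 of the 46 named gene differences, none of which changed sign under any setting run. Signal over background limits dim genes: 2600 of 19425 had a measurable level in non-tumor lung alone and 253 in tumor alone. The dimmest measurable signal was higher on the tumor array. No paired analysis was possible because each group is 1 array.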

Other observations

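Gene families that are not fixed lists themselves were picked after their values were seen, so they are descriptions. Their members can also stand in the fixed lists, as Itih4 does. Of all measured genes, 5.43% were higher and 9.13% lower. Connexins, which form gap junctions, had 6 of 11 members at least 2-fold higher in Nrf2-/- tumor and 1 lower, with a median of 1.10. Both fructose-bisphosphatases, enzymes of gluconeogenesis, were higher, with Fbp1 at 2.43 and Fbp2 at 2.95. Of 22 subunits of the vacuolar proton pump, 4 were higher and 1 lower, with a median of 0.36. Of 5 inter-alpha-trypsin inhibitor heavy chains 3 were higher and 1 lower, from Itih5 at -1.28 to Itih2 at 3.68. Ly49 receptors, found on NK cells, had 3 of 7 higher and 0 lower. Their median was 0.36, from Klra16 at -0.67 to Klra8 at 2.49. Whether probes of these related genes share signal was not tested. The T and NK cell list had 2 higher and 5 lower of 29. Of 20 measured genes named Cfap, 14 were lower and 0 higher, with a median of -2.05.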
